A study of Homo sapiens with 6 samples.

Results

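The genes described here carry glucose from its uptake to lactate or to the mitochondrion. They comprise 34 genes chosen by name as rows of the authors' gene table, and all 34 were found among its 19470 gene symbols. They encode glucose transporters, the enzymes of the 10 steps from glucose to pyruvate, the enzymes that set the level of the activator fructose 2,6-bisphosphate, lactate dehydrogenases, monocarboxylate transporters, and pyruvate dehydrogenase with its kinases and a phosphatase. RNA sequencing compared A549 cells, a wild-type human lung adenocarcinoma line, after exposure to osteoclast-conditioned medium (the activated group, 3 libraries) with A549 cells in an induced dormant state (the dormant group, 3 libraries). Osteoclasts are the bone-resorbing cells. How dormancy was induced, and whether both groups shared a base medium, cell density or time in culture, is not stated in these sources, so the state and the medium cannot be told apart. The comparison addressed which genes differ between dormant and activated tumour cells.

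Glycolysis splits glucose into pyruvate in the cytosol and yields ATP and NADH. Lactate dehydrogenase then reduces pyruvate to lactate, which leaves the cell through monocarboxylate transporters, while pyruvate dehydrogenase sends pyruvate into the citric acid cycle instead. Many tumours make lactate even with oxygen present, and hypoxia-inducible factor (HIF) and MYC are known activators of many of these genes. Most steps have several isozymes, encoded by separate genes, that differ in kinetics and in tissue of expression.

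Transcripts of the pathway were higher in activated cells at nearly every step below glucose phosphorylation, with the largest rises for the aldolase ALDOC, the lactate exporter SLC16A3 and the lactate dehydrogenase LDHA, while the most abundant hexokinase of dormant cells fell. All 34 genes had at least 135 counts in every library and were tested. At an adjusted p under 0.05 in edgeR's quasi-likelihood test, 28 of 34 members passed, or 82.4%, against 73.7% of the 13336 genes tested. Of the members 21 were higher in activated cells (61.8%, against 36.5% of all genes) and 7 were lower (20.6%, against 37.2%). A change of at least 2-fold was called higher for 11 members (32.4%, against 11.2%) and lower for 3 (8.82%, against 11.0%). The members' median log2 fold change was 0.65, against -0.02 over all genes tested. The 2 groups of libraries did not overlap for 28 members (82.4%, against 76.5% of all genes). Most genes of these cells differed between the groups, so the members are described by the size and direction of their differences.

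Levels are given as normalised FPKM, the count per kilobase of gene length and scaled to the library total with TMM factors (CPM is the same without the length). Comparing genes with each other within a library depends on the gene lengths of the deposited data. For PDK3 that length was 13074 bases against 4951 exonic bases in GENCODE v29, and for SLC16A3 it was 3227 against 8995. Shares, sums and ranks across genes rest on these lengths. Total counts were 34478795 to 36397989 in activated libraries and 34128471 to 36667725 in dormant libraries. The 34 genes took 3.40% ± 0.121 of all counts in activated libraries and 1.58% ± 0.037 in dormant libraries (SD, n = 3 each). No label says that replicates were grown as separate cultures, so p-values measure only the spread among these libraries, part or all of which may be technical. Bulk RNA cannot tell more transcript per cell from more cells that express a gene. The epithelial and A549 markers were all detected, with a summed level of 15380 to 16529 CPM in activated libraries and 6455 to 6632 CPM in dormant libraries, and 7 of 10 were higher and 1 was lower. Within that sum, ALDH1A1 alone had a mean of 7700 CPM in activated and 1570 CPM in dormant libraries. Of 10 osteoclast markers 7 were tested, with 1 higher and 4 lower in activated libraries. The list summed to 22.9 to 24.8 CPM in activated and 53.2 to 54.9 CPM in dormant libraries. CALCR, DCSTAMP and OCSTAMP had no count in any library. MMP9, the 1 higher, passed the filter on low counts through the activated libraries alone and could only be called higher. ACP5 and ATP6V0D2, among the 4 lower, passed it through the dormant libraries alone and could only be called lower. Within the sum, ATP6V0D2 had a mean of 0.0707 CPM in activated and 19.3 CPM in dormant libraries. Of 12 myeloid markers 5 were tested and all 5 were higher, and the list summed to 166 to 174.0 CPM in activated and 136 to 148 CPM in dormant libraries, with TYROBP, AIF1, C1QA, C1QB and C1QC at no count in any library. CD68 made up most of that sum, at a mean of 152 CPM in activated and 135 CPM in dormant libraries, and rose 1.13-fold. CD14, CSF1R, LAPTM5 and ITGAM rose 8.37-fold, 8.42-fold, 9.29-fold and 1.73-fold. Of these, CSF1R and LAPTM5 had 0 to 9 counts in dormant libraries. Both passed the filter through the activated libraries alone and could only be called higher. The calls in these marker lists stand against 36.5% of all genes tested being higher and 37.2% lower. The part of other cell types in the results was not tested.

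**Figure D1:**
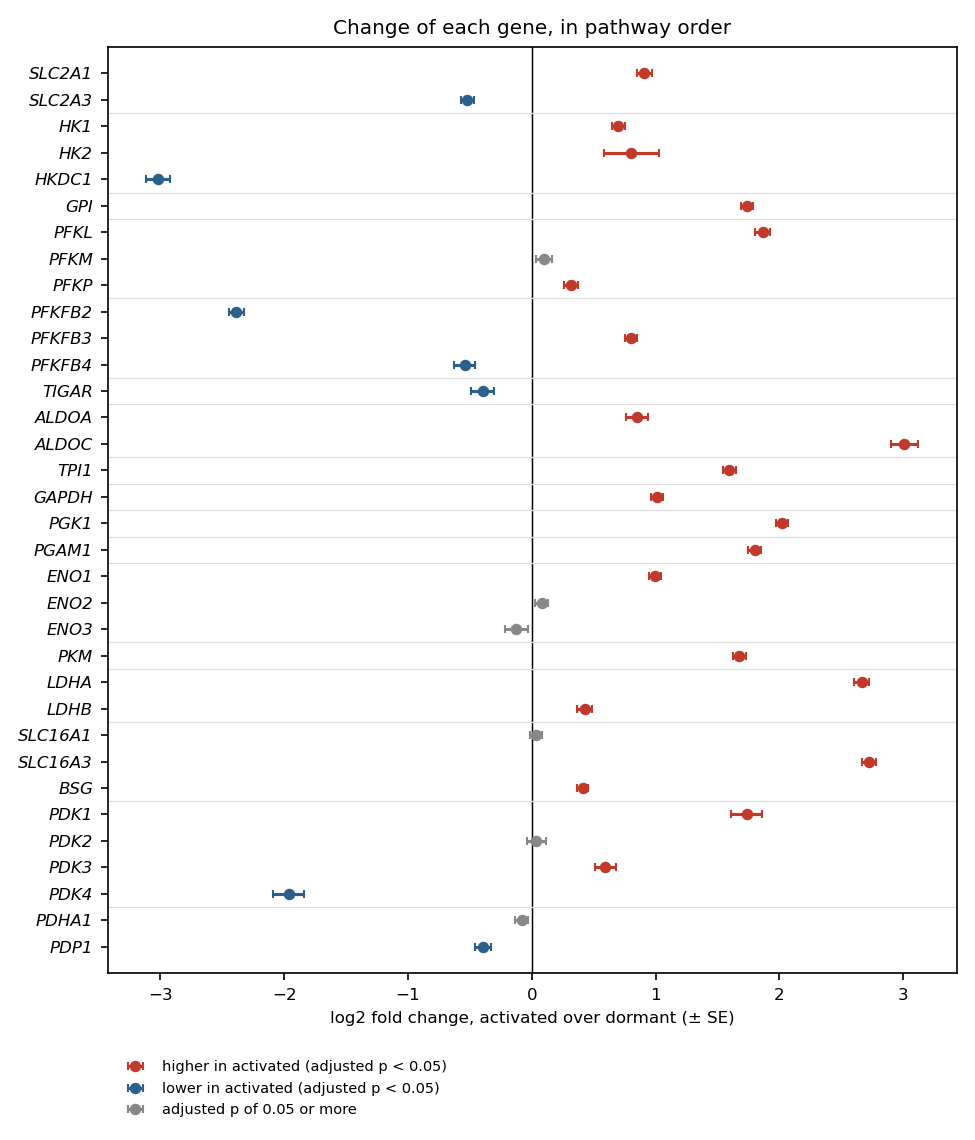
Log2 fold change (activated over dormant, ± SE, from edgeR) on the x axis for each of the 34 genes, ordered down the page by their place in the pathway; grey lines part the steps, and colours mark genes higher, lower or not past an adjusted p of 0.05. From GPI to LDHA the called genes lie to the right of 0 except PFKFB2, PFKFB4 and TIGAR, and HKDC1 has the lowest value, -3.02.

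The promoters of the 3 members with the largest rises among those that hold the letters ACGTG are shown because HIF and E-box factors such as MYC are known to bind sites with that core. Each stretch is the 250 bases before the RefSeq start (GRCh38.p14), written 5′ to 3′ on the gene's strand, with ACGTG on either strand in capitals. ALDOC lies at chr17:28576896-28577145 on the minus strand, LDHA at chr11:18394313-18394562 on the plus strand and PGK1 at chrX:78103998-78104247 on the plus strand.
ALDOC: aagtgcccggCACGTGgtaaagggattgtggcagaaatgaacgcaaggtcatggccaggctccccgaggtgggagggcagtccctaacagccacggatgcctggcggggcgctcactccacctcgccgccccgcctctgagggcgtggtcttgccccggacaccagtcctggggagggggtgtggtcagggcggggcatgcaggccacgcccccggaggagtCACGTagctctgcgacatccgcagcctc
LDHA: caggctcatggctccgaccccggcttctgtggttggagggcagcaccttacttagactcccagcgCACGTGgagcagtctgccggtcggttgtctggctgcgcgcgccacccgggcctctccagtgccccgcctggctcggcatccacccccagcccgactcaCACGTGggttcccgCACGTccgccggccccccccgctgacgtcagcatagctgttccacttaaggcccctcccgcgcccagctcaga
PGK1: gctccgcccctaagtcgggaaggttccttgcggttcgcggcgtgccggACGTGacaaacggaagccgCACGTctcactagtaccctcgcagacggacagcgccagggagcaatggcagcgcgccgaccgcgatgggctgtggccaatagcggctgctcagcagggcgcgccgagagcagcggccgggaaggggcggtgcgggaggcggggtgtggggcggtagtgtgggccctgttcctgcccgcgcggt
A CACGTG reads the same on both strands and so holds the shorter motif on each. The LDHA promoter held 2 copies of CACGTG and a further single copy of the shorter motif, and the ALDOC promoter held 1 copy of each kind. The PGK1 promoter held 2 copies of the shorter motif alone. Promoters were matched for 30 of the 34 members; SLC2A3, PFKFB2, SLC16A1 and PDP1 were the others. ACGTG on either strand stood in the same window of 10 of the 30, against 18.7% of 27305 RefSeq promoters. It was in 8 of 21 members that rose, 1 of 4 that fell and 1 of 5 that did not pass. GCGTG, the other form of the HIF core, stood in 10 of the 30, against 31.9% of all promoters, and CACGTG in 3 of the 30, against 6.49%. SLC16A3, PGAM1, PDK1, PKM and TPI1, which rose 6.60-fold, 3.48-fold, 3.33-fold, 3.20-fold and 3.03-fold, held none of these letters in this window. The same held for SLC2A1, HK1, LDHB, BSG and PFKP, which also rose. A match is a run of letters and not a bound site.

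Glucose enters through facilitative transporters of the SLC2A (GLUT) family, and the 2 members moved in opposite directions. SLC2A1, which encodes GLUT1, the widespread transporter of tumour cells (chromosome 1, 42925353 to 42958868), had 112, 113 and 116 normalised FPKM in activated libraries, against 64.3, 54.6 and 62.7 in dormant libraries. The groups did not overlap, and the gene rose 1.88-fold (log2 fold change 0.91 ± 0.06 SE, adjusted p = 3.01e-09, edgeR). SLC2A3, which encodes the high-affinity transporter GLUT3, had 17.9, 18.9 and 19.9 normalised FPKM in activated libraries and 27.6, 27.0 and 26.7 in dormant libraries, a fall of 1.44-fold (adjusted p = 5.24e-07, edgeR). SLC2A3 has a near-identical neighbour, SLC2A14, with 7 to 12 counts per library, and reads shared by the pair may be lost or split. SLC2A1 made up 85.8% ± 0.393 of the summed level of the pair in activated cells and 69.0% ± 1.81 in dormant cells. Summed, the transporter pair was 1.51 times as high in activated cells.

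Hexokinases trap glucose as glucose 6-phosphate, and this step changed its leading isozyme. HKDC1, a low-activity hexokinase (chromosome 10, 69220332 to 69267552), had 19.3, 13.9 and 17.8 normalised FPKM in activated libraries, against 143, 129 and 142 in dormant libraries. Every dormant library lay far above every activated library, and HKDC1 fell 8.11-fold (log2 fold change -3.02 ± 0.09 SE, adjusted p = 9.53e-13, edgeR), the largest fall among the members. In dormant cells it ranked 334 of 13336 genes by level, against 3669 in activated cells. HK1, the housekeeping hexokinase that binds mitochondria, starts only 2447 bases beyond the end of HKDC1 (chromosome 10, 69270000 to 69401882) and moved the other way. It had 65.6, 62.2 and 64.2 normalised FPKM in activated libraries and 40.7, 37.1 and 40.4 in dormant libraries, a 1.62-fold rise (adjusted p = 1.05e-08, edgeR). HK2, the inducible isozyme often raised in tumours, was scarce in both groups, with 1.35, 2.42 and 1.35 normalised FPKM in activated libraries and 1.06, 1.12 and 0.748 in dormant libraries. Its groups did not overlap, but activated replicate 2 stood well above the others, and the rise of 1.75-fold (adjusted p = 0.00423, edgeR) missed the threshold on log2(FPKM + 1) (adjusted p = 0.103, limma).

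By share of the summed hexokinase level, HKDC1 held 20.5% ± 2.44 in activated cells and 77.3% ± 0.206 in dormant cells, and HK1 held 77.4% ± 1.60 in activated cells and 22.1% ± 0.118 in dormant cells. HK2 was at 2.09% ± 0.855 in activated cells and 0.551% ± 0.133 in dormant cells. The summed hexokinase level was 82.7 ± 3.87 normalised FPKM in activated cells, against 178 ± 9.86 in dormant cells, so the total of this step was 2.16 times as high in dormant cells although both HK1 and HK2 rose. Of the 10 enzyme steps it was the only 1 with a lower sum in activated cells.

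Glucose 6-phosphate isomerase and phosphofructokinase follow. GPI, the isomerase (chromosome 19, 34359718 to 34402413), had 135, 129 and 134 normalised FPKM in activated libraries, against 40.9, 38.4 and 39.7 in dormant libraries, a 3.34-fold rise (log2 fold change 1.74 ± 0.05 SE, adjusted p = 2.97e-13, edgeR). Phosphofructokinase 1 commits the sugar to glycolysis and has 3 isozyme genes, of which PFKP, the platelet form, led in both groups. PFKP had 191, 197 and 198 normalised FPKM in activated libraries and 166, 145 and 158 in dormant libraries, a rise of only 1.25-fold (adjusted p = 8.51e-05, edgeR). PFKL, the liver form, had 37.0, 42.2 and 39.9 normalised FPKM in activated libraries and 10.4, 11.2 and 11.1 in dormant libraries, a rise of 3.64-fold (adjusted p = 1.30e-12, edgeR). PFKM, the muscle form, overlapped between groups at 14.1 to 16.6 normalised FPKM in activated and 13.9 to 15.2 in dormant libraries (log2 fold change 0.10, adjusted p = 0.186, edgeR). Its value was -0.04 with total counts, without passing, and it passed as higher with the gene length correction at 0.17 (adjusted p = 0.0144, edgeR). The rise was thus unequal among the isozymes: PFKL held 15.8% ± 0.614 of the summed level in activated cells and 6.01% ± 0.520 in dormant cells, while the share of PFKP was 78.0% ± 0.923 in activated cells and 86.0% ± 1.34 in dormant cells.

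The PFKFB enzymes make and break fructose 2,6-bisphosphate, the strongest activator of phosphofructokinase 1, and TIGAR, a p53 target, breaks it down. PFKFB3, the form with the highest kinase to phosphatase activity, rose 1.74-fold, with 102, 98.8 and 97.3 normalised FPKM in activated libraries and 56.0, 56.4 and 58.5 in dormant libraries (adjusted p = 7.35e-10, edgeR). The other 3 genes fell. PFKFB2, known as the heart form, had 1.88, 1.86 and 1.72 normalised FPKM in activated libraries, against 9.85, 9.47 and 9.34 in dormant libraries, a fall of 5.23-fold (log2 fold change -2.39 ± 0.06 SE, adjusted p = 1.14e-13, edgeR). PFKFB4 had 3.47 to 3.80 normalised FPKM in activated and 4.93 to 5.95 in dormant libraries, 1.46-fold lower in activated cells (adjusted p = 3.94e-05, edgeR). TIGAR had 3.69 to 5.03 normalised FPKM in activated and 5.53 to 6.19 in dormant libraries, 1.32-fold lower in activated cells (adjusted p = 0.00148, edgeR). In GENCODE v29, 42.6% of the exonic bases of TIGAR are shared with another gene on the same strand, so its level is uncertain. PFKFB3 held 94.7% ± 0.124 of the summed level of the 3 PFKFB genes in activated cells and 79.2% ± 0.110 in dormant cells.

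Aldolase cleaves fructose 1,6-bisphosphate into 2 triose phosphates. ALDOC, known as the brain isozyme (chromosome 17, 28573120 to 28576895), had 22.7, 20.5 and 21.4 normalised FPKM in activated libraries and 3.16, 2.58 and 2.27 in dormant libraries. The groups were far apart, and its rise of 8.06-fold was the largest among the members (log2 fold change 3.01 ± 0.11 SE, adjusted p = 5.89e-12, edgeR). ALDOA, the widespread isozyme, had 12.7, 12.2 and 13.5 normalised FPKM in activated libraries and 7.33, 6.35 and 7.58 in dormant libraries, a 1.80-fold rise (adjusted p = 5.77e-07, edgeR). The level of ALDOA was far below that of its pathway neighbour TPI1, described next, and 53.5% of its exonic bases in GENCODE v29 are shared with 2 other annotated genes, 42.3% on the same strand. Reads of those bases may have been lost or given to another row, so the level of ALDOA and the aldolase shares, with ALDOC at 62.8% ± 1.45 in activated cells and 27.3% ± 3.80 in dormant cells, are uncertain.

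The lower part of glycolysis turns triose phosphate into pyruvate and returns ATP. Its 4 steps of a single listed gene, together with triose phosphate isomerase, all rose. TPI1, the isomerase, had 978, 911 and 917 normalised FPKM in activated libraries and 318, 294 and 316 in dormant libraries, a 3.03-fold rise (adjusted p = 1.29e-12, edgeR). GAPDH, the dehydrogenase that makes NADH and is widely used as a reference gene in quantitative PCR (chromosome 12, 6534517 to 6538371), had 5800, 5457 and 5718 normalised FPKM in activated libraries and 2923, 2672 and 2824 in dormant libraries. It rose 2.02-fold (log2 fold change 1.01 ± 0.05 SE, adjusted p = 9.80e-11, edgeR) and ranked 2 of 13336 genes by level in activated cells and 3 in dormant cells. PGK1, the kinase that makes the first ATP of the pathway (chromosome X, 78104248 to 78129295), had 420, 414 and 400 normalised FPKM in activated libraries and 103, 98.2 and 103 in dormant libraries, a 4.06-fold rise (log2 fold change 2.02 ± 0.05 SE, adjusted p = 6.18e-14, edgeR). PGAM1, the mutase, had 261, 249 and 250 normalised FPKM in activated libraries, against 72.1, 70.1 and 76.1 in dormant libraries, a 3.48-fold rise (adjusted p = 3.30e-13, edgeR). Several of these genes have processed pseudogenes that can take or remove reads, and GENCODE v29 names 62 for GAPDH and 13 for PGAM1.

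Enolase makes phosphoenolpyruvate, and its isozymes did not move together. ENO1, the widespread form, had 1247, 1173 and 1179 normalised FPKM in activated libraries and 624, 565 and 614 in dormant libraries, a 2.0-fold rise (adjusted p = 2.01e-10, edgeR). ENO2, the neuronal form, had 61.1 to 63.5 normalised FPKM in activated and 56.2 to 62.0 in dormant libraries (log2 fold change 0.08, adjusted p = 0.178, edgeR). ENO3, the muscle form, had 9.18 to 10.6 normalised FPKM in activated and 10.5 to 11.0 in dormant libraries (log2 fold change -0.12, adjusted p = 0.226, edgeR). Both overlapped between groups, and with total-count scaling ENO2 turned to -0.06 without passing and ENO3 passed at -0.26 (adjusted p = 0.0163, edgeR). ENO1 held 94.3% ± 0.144 of the summed enolase level in activated cells and 89.6% ± 0.859 in dormant cells. PKM, the pyruvate kinase gene whose splice forms share a single row here (chromosome 15, 72199029 to 72231591), had 2755, 2508 and 2658 normalised FPKM in activated libraries and 854, 793 and 827 in dormant libraries. It rose 3.20-fold (log2 fold change 1.68 ± 0.05 SE, adjusted p = 6.94e-13, edgeR) and ranked 9 of 13336 genes in activated cells and 45 in dormant cells.

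Neighbouring members differed in their change. Of the members 7 lie on chromosome 12, and GAPDH, TPI1 and ENO2 lie within 389 kilobases of each other, with log2 fold changes of 1.01, 1.60 and 0.08.

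**Figure D2:**
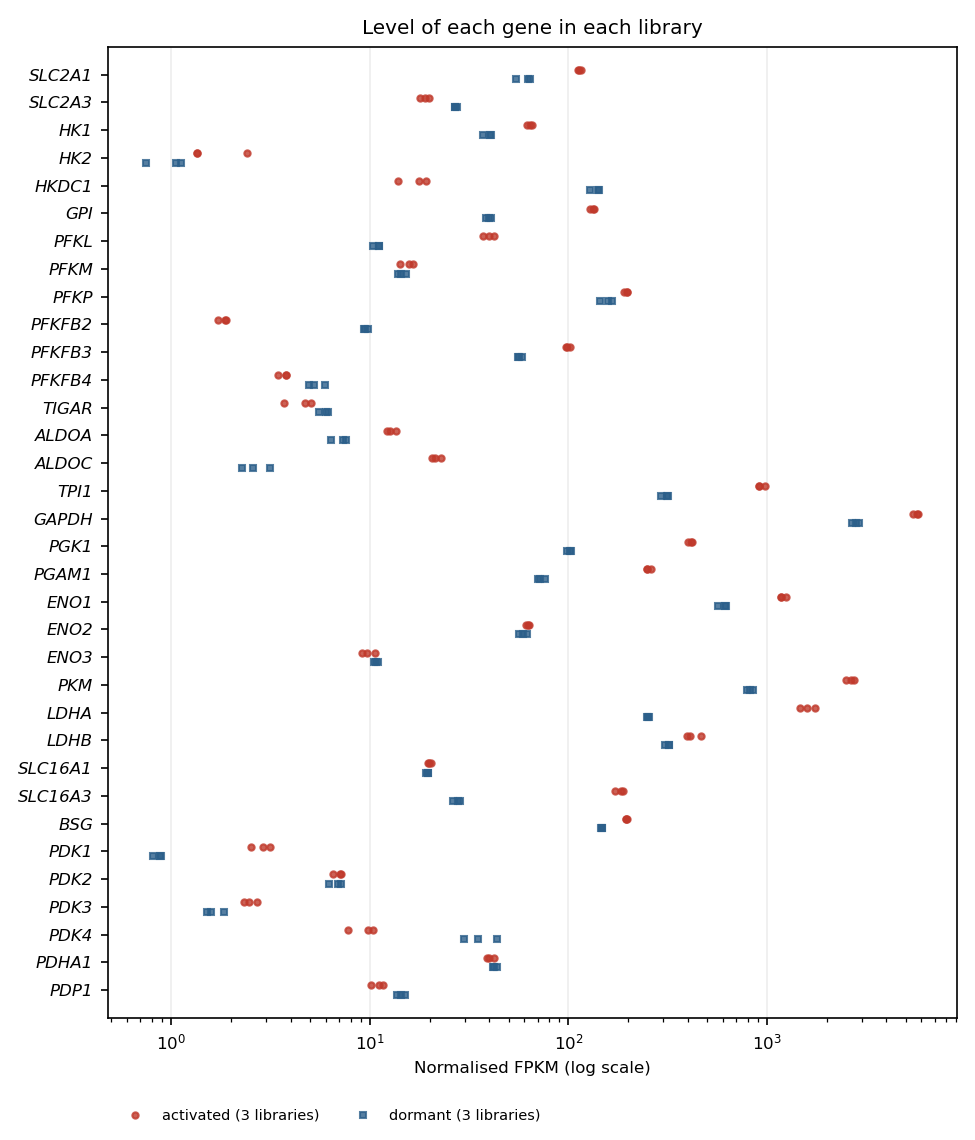
Normalised FPKM on a logarithmic x axis for each gene in each library, with the 3 activated libraries as circles above the 3 dormant libraries as squares. The circles lie right of the squares for 21 genes and left of them for 7, and levels span from 5800 for GAPDH in activated replicate 1 down to 0.748 for HK2 in dormant replicate 3.

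Lactate dehydrogenase is a tetramer of A and B subunits, of which A favours lactate formation and B favours its use. LDHA (chromosome 11, 18394563 to 18408425) had 1742, 1471 and 1592 normalised FPKM in activated libraries and 256, 253 and 249 in dormant libraries. No activated library came near the dormant range, and the rise was 6.34-fold (log2 fold change 2.67 ± 0.06 SE, adjusted p = 4.36e-14, edgeR). LDHB had 467, 398 and 410 normalised FPKM in activated libraries and 320, 322 and 306 in dormant libraries, a rise of only 1.34-fold (adjusted p = 1.12e-05, edgeR). The ratio of LDHA to LDHB per length was 3.77 ± 0.10 in activated cells and 0.799 ± 0.0145 in dormant cells, with no overlap, so LDHB led in dormant cells and LDHA in activated cells. In raw counts the dormant libraries had slightly more LDHA than LDHB (for replicate 1, 23941 against 23436), so that the lead of LDHB in dormant cells rests on the gene lengths used. In GENCODE v29, 33.4% of the exonic bases of LDHB are shared with another gene on the same strand, and its level is uncertain for that reason too.

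Lactate leaves through proton-linked monocarboxylate transporters, which need the chaperone basigin to reach the membrane. SLC16A3, which encodes the export form MCT4 (chromosome 17, 82217934 to 82240086), had 172, 189 and 183 normalised FPKM in activated libraries and 26.2, 28.4 and 27.9 in dormant libraries. It rose 6.60-fold (log2 fold change 2.72 ± 0.06 SE, adjusted p = 2.01e-14, edgeR). SLC16A1, which encodes the bidirectional form MCT1, had 20.0, 20.4 and 19.6 normalised FPKM in activated libraries and 19.6, 19.6 and 19.1 in dormant libraries (log2 fold change 0.04, adjusted p = 0.505, edgeR). The direction for SLC16A1 hung on the scaling, with -0.10 for total counts (adjusted p = 0.0753, edgeR). BSG, basigin, had 196, 195 and 197 normalised FPKM in activated libraries and 145, 148 and 148 in dormant libraries, a 1.33-fold rise (adjusted p = 7.26e-07, edgeR). SLC16A3 held 90.1% ± 0.422 of the summed level of the transporter pair in activated cells and 58.6% ± 1.22 in dormant cells. In raw counts the pair was nearly level in dormant libraries, with 3161, 3567 and 3220 for SLC16A3 against 3313, 3440 and 3084 for SLC16A1. The lead of SLC16A3 in dormant cells thus rests on the gene lengths used.

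Pyruvate dehydrogenase is switched off when its E1 alpha subunit is phosphorylated by the kinases PDK1 to PDK4 and switched on again by phosphatases. PDHA1, that subunit, overlapped between groups, with 39.0 to 42.2 normalised FPKM in activated and 41.5 to 43.8 in dormant libraries (log2 fold change -0.08, adjusted p = 0.162, edgeR), and passed as lower with total-count scaling at -0.22 (adjusted p = 0.000973, edgeR). The kinases differed. PDK1, a known HIF target, had 2.52, 2.91 and 3.16 normalised FPKM in activated libraries, against 0.879, 0.813 and 0.889 in dormant libraries, a 3.33-fold rise (log2 fold change 1.74 ± 0.13 SE, adjusted p = 1.20e-08, edgeR). PDK4, known to be raised by fasting, had 10.4, 7.75 and 9.81 normalised FPKM in activated libraries and 29.7, 43.9 and 35.2 in dormant libraries. It fell 3.90-fold (log2 fold change -1.96 ± 0.13 SE, adjusted p = 2.23e-09, edgeR), with a wide spread among dormant libraries. PDK3 had 2.31 to 2.69 normalised FPKM in activated and 1.52 to 1.83 in dormant libraries, a 1.51-fold rise (adjusted p = 2.18e-05, edgeR). PDK2 overlapped at 6.56 to 7.16 normalised FPKM in activated and 6.21 to 7.14 in dormant libraries (log2 fold change 0.04, adjusted p = 0.687, edgeR), a value of -0.10 with total counts. In GENCODE v29, 38.6% of the exonic bases of PDK2 and 21.3% of those of PDHA1 are shared with a gene on the opposite strand, so the levels of both, and the kinase shares, are uncertain if strand was not used in counting. The phosphatase PDP1 was 1.31-fold lower, at 10.2 to 11.6 normalised FPKM in activated and 13.6 to 15.1 in dormant libraries (adjusted p = 6.29e-05, edgeR).

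The fall of PDK4 outweighed the rises of PDK1 and PDK3 in the summed level. The 4 kinases together had 21.6 ± 1.14 normalised FPKM in activated cells and 45.5 ± 7.73 in dormant cells. Per length, PDK4 remained the most abundant of the 4 in both groups, with 43.0% ± 4.28 of the sum in activated cells and 79.4% ± 2.16 in dormant cells. PDK1 held 13.3% ± 1.73 in activated cells and 1.93% ± 0.394 in dormant cells. In raw counts the activated libraries had 1277, 968 and 1160 for PDK4 against 1035, 1114 and 1156 for PDK3. The lead of PDK4 in activated cells thus rests in part on the gene lengths used.

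**Figure D3:**
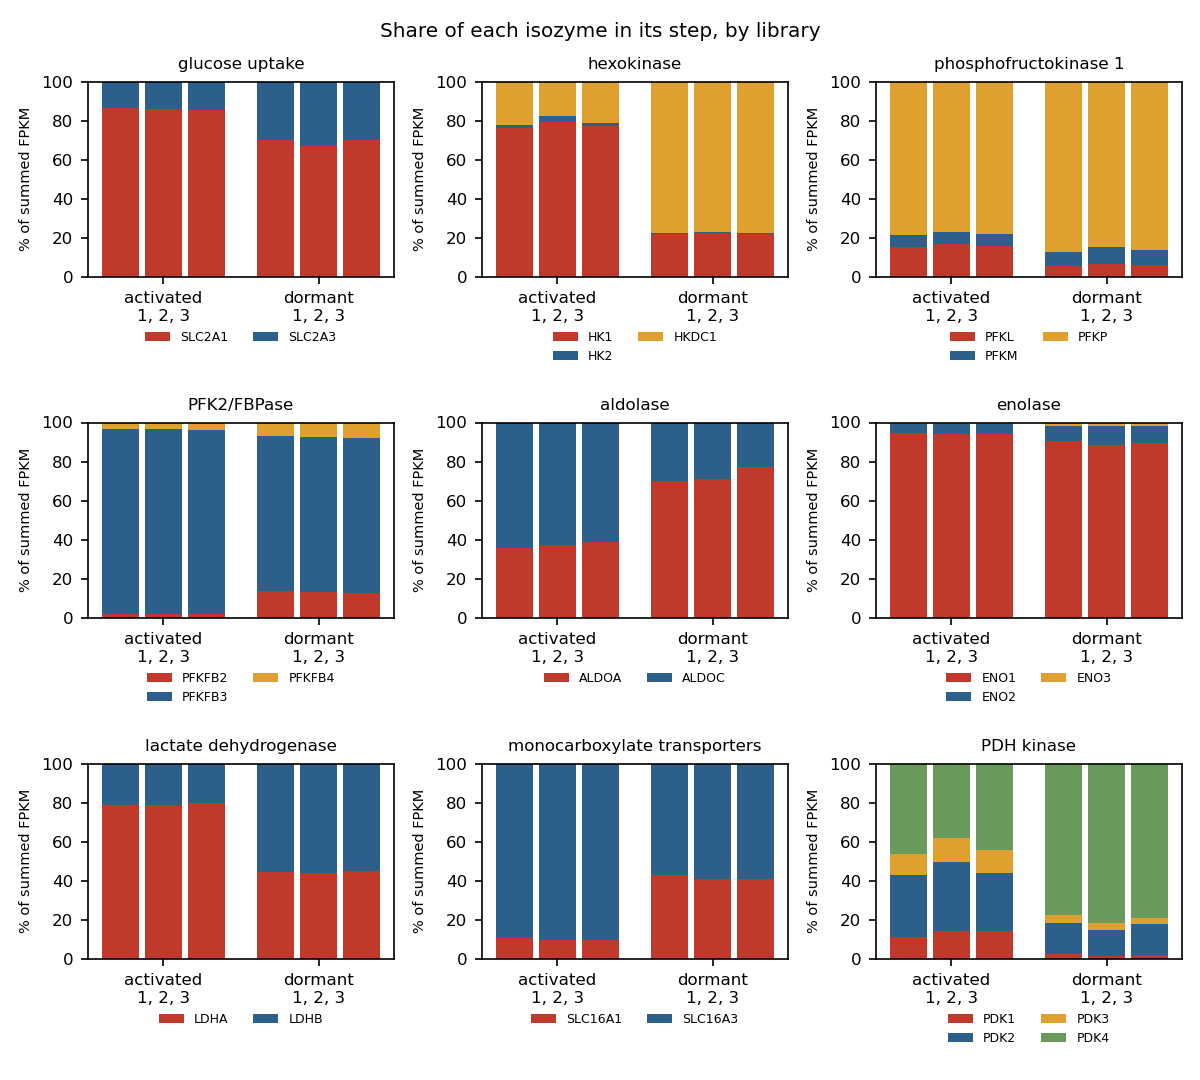
Share of each isozyme in the summed FPKM of its step (y axis, percent), with a bar for each library, the 3 activated libraries left of the 3 dormant libraries. HKDC1 takes 17.7 to 22.3% of the hexokinase bars in activated libraries and 77.1 to 77.5% in dormant libraries, and LDHA takes 78.7 to 79.5% in activated and 44.0 to 44.9% in dormant libraries.

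In 9 steps with more than 1 listed isozyme, the shares of the isozyme that led in dormant cells did not overlap between groups. By level, 76.5% of all genes tested did not overlap between the groups either. Shares cancel the scaling of a library. Each difference had p = 0.1 in a two-sided exact permutation test over the 6 libraries, which is the smallest p that 3 against 3 allows, and p = 0.1 after Benjamini-Hochberg adjustment over the 9 steps, so none could pass 0.05. Per length, the leading isozyme differed between the groups in 3 steps. HK1, ALDOC and LDHA led in activated cells, where HKDC1, ALDOA and LDHB led in dormant cells. Of these, lactate dehydrogenase had LDHA ahead in both groups by raw counts, and the aldolase shares carry the uncertainty of ALDOA. Among the other steps, the lead of SLC16A3 in dormant cells and that of PDK4 in activated cells also depended on gene length. The smallest shift was for ENO1, 4.75 percentage points higher in activated cells, and the largest was for HKDC1, -56.9 percentage points.

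Summed by step, 9 of the 10 enzyme steps from glucose to pyruvate were higher in activated cells with no overlap between libraries, and hexokinase was lower. Taken singly, 76.5% of all genes tested did not overlap between the groups either. The ratio of activated to dormant sums among those 9 ran between 1.38, for phosphofructokinase 1, and 4.06, for phosphoglycerate kinase. Aldolase had a ratio of 3.52 and the lowest sum of the 10, at 34.3 ± 1.45 normalised FPKM in activated cells and 9.76 ± 0.784 in dormant cells, and this sum, its ratio and its place as the lowest rest in part on the uncertain level of ALDOA. Lactate dehydrogenase had a ratio of 3.56, at 2027 ± 172 normalised FPKM in activated cells and 569 ± 11.6 in dormant cells, and the monocarboxylate transporter pair a ratio of 4.29. These sums add transcripts, not enzyme activity, and the exact permutation p was 0.1 for each, the smallest possible.

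**Figure D4:**
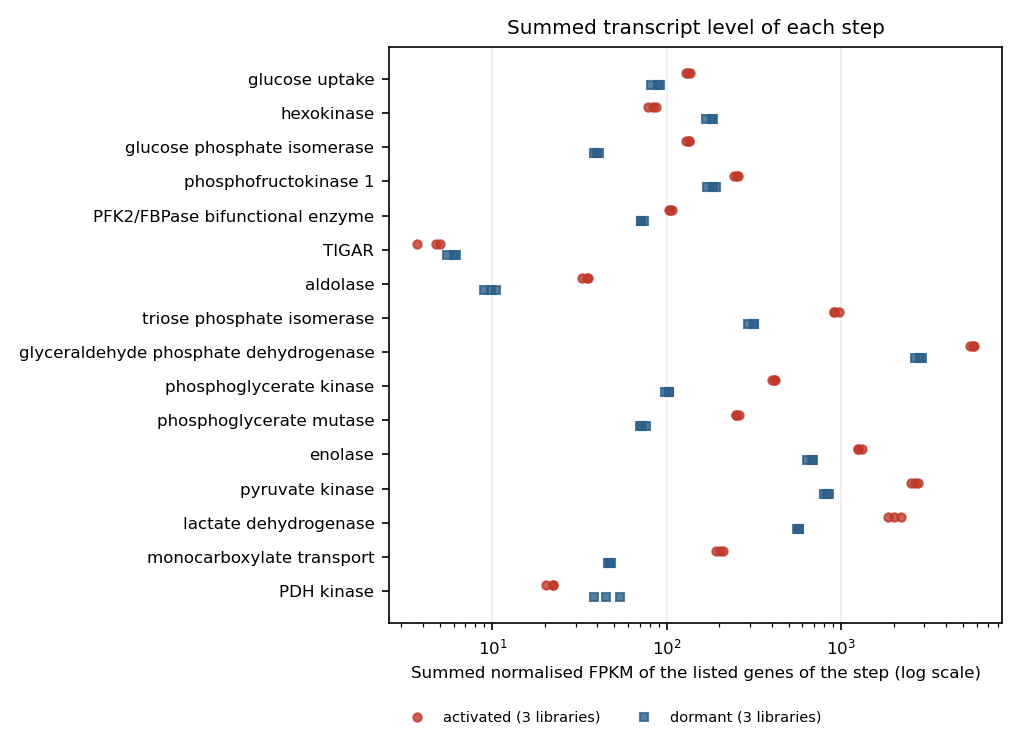
Summed normalised FPKM of the listed genes of each step on a logarithmic x axis, with the 3 activated libraries as circles above the 3 dormant libraries as squares. Hexokinase, TIGAR and the pyruvate dehydrogenase (PDH) kinases lie further left in activated libraries, and every other step further right.

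The counts of calls in the lists that follow stand against 36.5% of all genes tested being higher and 37.2% lower, or 3941 higher and 5998 lower of 13336 with total counts. Of 30 other isozymes and transporters of the same steps 13 had enough counts to be tested, with 4 higher and 1 lower in activated cells (3 and 3 with total counts) and a median log2 fold change of 0.06. The glucose transporters SLC2A8 and SLC2A6 rose 1.43-fold and 1.23-fold, the second not past the threshold with total counts (adjusted p = 0.0545, edgeR), and SLC16A4, an orphan monocarboxylate transporter, was 1.20-fold lower. PGAM4, a near-identical copy of PGAM1 named outside the rule after its value was seen, had 75, 49 and 67 counts in activated libraries against 28, 5 and 13 in dormant libraries. All activated but not all dormant libraries reached the minimum of the filter, so its call as higher carries little weight. Of 10 genes of pyruvate entry into mitochondria 9 were tested, with 4 higher and 3 lower (3 and 3 with total counts). PC, pyruvate carboxylase, rose 4.59-fold and PDHB, the E1 beta subunit, 1.97-fold, while PDP2, the other pyruvate dehydrogenase phosphatase, was 2.12-fold lower.

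Of 19 genes of glycogen and side branches 18 were tested, with 8 higher and 6 lower (8 and 8 with total counts). GPD1, a glycerol phosphate dehydrogenase among the 6, passed the filter through the dormant libraries alone, with 1, 4 and 1 counts in activated libraries against 33, 54 and 26 in dormant libraries, and could only be called lower. GYS1, the muscle-type glycogen synthase, rose 7.58-fold, with 217 ± 9.0 CPM in activated cells and 28.6 ± 1.52 CPM in dormant cells (adjusted p = 1.94e-14, edgeR). Both enzymes that start hexosamine synthesis changed, in opposite directions: GFPT2 rose 3.89-fold and GFPT1 fell 2.57-fold. Of 8 gluconeogenesis genes 3 were tested: SLC37A4, the glucose 6-phosphate carrier, and G6PC3, a glucose 6-phosphatase, rose 3.13-fold and 1.91-fold, and PCK2, mitochondrial phosphoenolpyruvate carboxykinase, fell 3.82-fold.

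Of 11 genes of the HIF axis 10 were tested, of which 3 were higher and 6 lower (3 and 7 with total counts). CITED2, a competitor of HIF for its coactivator, and EPAS1, which encodes HIF-2 alpha, were 2.91-fold and 1.63-fold lower, while EGLN3, an oxygen-sensing hydroxylase and itself a HIF target, was 13.5-fold higher. HIF1A and MYC, both named outside the rule after their values were seen, moved in opposite directions. HIF1A had 1253 ± 17.2 CPM in activated cells and 669 ± 24.1 CPM in dormant cells (adjusted p = 2.07e-10, edgeR). MYC had 199 ± 5.05 CPM in activated cells and 369 ± 27.0 CPM in dormant cells, 1.85-fold lower in activated cells (adjusted p = 2.08e-09, edgeR). Of 16 regulators of glycolysis genes 15 were tested, of which 5 were higher and 8 lower (4 and 10 with total counts). ARRDC4, an arrestin induced by glucose sensing through MondoA, fell 27.1-fold, and TXNIP, which limits glucose uptake, had 14, 26 and 6 counts in activated libraries against 3420, 4714 and 3601 in dormant libraries. All dormant but not all activated libraries of TXNIP reached the minimum of the filter, and its fitted fall of 229-fold became 345.5-fold without activated replicate 2. The transcript of STK11, which encodes a kinase upstream of AMPK, rose 1.84-fold. Neither protein nor protein activity was measured for STK11 or for the other genes named here, HIF1A and MYC among them.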

How the data were processed

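Total RNA of 6 A549 samples was sequenced after preparation with a VAHTS Universal V6 kit, per the labels' protocols. The tools HISAT2, fastp and HTSeq and the genome GRCh38 are named in the submitters' processing notes. Versions, annotation and strand setting were not given in the sources used here. Whether reads of a gene were kept apart from those of a gene overlapping it in antisense is therefore unknown. The deposited count table holds whole counts per gene symbol. The deposited FPKM table holds the same counts divided by the library total and a gene length, since a single length per gene was recovered from the 2 tables in all libraries.

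From the counts, edgeR 4.0.16 (R 4.3.3) was run on the whole table with TMM factors, the default filter by group, the quasi-likelihood test and Benjamini-Hochberg adjustment at 0.05. Each standard error is the absolute log2 fold change over the root of its F statistic. Normalised FPKM divides TMM-scaled CPM by the recovered length; isozyme shares use the deposited FPKM. Sums by step, tested by exact permutation over libraries, were added after the data were seen. No 2 replicates agreed within sampling noise (chi-square per degree of freedom 4.82 to 21.8). Coordinates and promoters are RefSeq's (GRCh38.p14), and exon overlaps and pseudogenes are from GENCODE v29, which may not be the annotation used for counting.

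The members, gene lists and tests were chosen with earlier results of these data known. All members were described; of each other list, the 2 largest changes in the majority direction and the largest in the other were named, among called genes whose mean log2 CPM was 1 or more. Alternatives were edgeR with upper-quartile factors, DESeq2 size factors or total counts, DESeq2 1.42.0, limma 3.58.1 voom, limma on log2(FPKM + 1) without a filter, limma on log2(FPKM + 0.1) for genes averaging at least 0.5 FPKM, other filters on low counts, a replicate block, a gene length correction, other thresholds, and leaving out each library.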

Additional observations from a re-analysis of the deposited data

How the results depend on the processing

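The number of members called was 28 with DESeq2 size factors, upper-quartile factors, DESeq2, limma voom, both filters and an adjusted p threshold of 0.01, and 30 with total counts, both FPKM settings and the gene length correction. Leaving out 1 library gave 28 to 30 members called, 21 to 22 higher and 7 to 8 lower. The count of 30 came without activated replicate 1, where PFKM passed as higher (log2 fold change 0.16) and PDHA1 as lower (-0.11). Requiring at least a 1.5-fold change left 18 higher and 3 lower, by construction. Of 578 values of the members over 17 alternatives 566 kept their side of the threshold and, where called, their direction, 10 gained a call and 1 lost it, which was HK2 on log2(FPKM + 1). SLC16A1 reversed on log2(FPKM + 1), to -0.10 (adjusted p = 0.0343, limma), from a value that had not passed. Over all genes, the median log2 fold change shifted by -0.14 under total-count scaling, and the cause of the difference between scalings was not tested.

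With the replicate number as a block, 28 members were called, 21 higher and 7 lower, as without it. Deviations of libraries sharing a number correlated at -0.0152, 0.019 and -0.0057, and the numbers were therefore not treated as pairing the libraries. All 72 values of isozyme shares under raw counts, a replicate block or a left-out library kept their direction. The summed level of each step also kept its direction with total counts and without each library, settings chosen after the data were seen. Depth limited no member, the lowest count being 135.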
